A study of Mus musculus with 12 samples.

Results

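NF-kB, TNF and Toll-like receptor signaling was followed through the accessible chromatin of mouse hematopoietic stem cells (HSCs) at 36 genes, which comprised 8 receptors, 11 adaptors, 4 kinases with their partner, 5 NF-kB factors and 8 inhibitors. Their regions were found by position alone. Every ATAC-seq summit with a score of 3 or more (a -log10 q-value, so q of 0.001 or less) was widened by 250 bp on each side, overlapping windows of the 12 libraries were merged, and a region was kept for a gene when its highest summit fell in the gene body or within 10 kb of it (GENCODE gene models, mm10). This gave 158 of the 71006 regions of the series. Of these, 41 lay within 1 kb of a start of the gene itself, 11 lay within 1 kb of a start of another gene, and 106 were distal.

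Receptors of this system sense microbial products (the Toll-like receptors), interleukin-1, interleukin-6 and TNF. MyD88, TRIF, IRAK and TRAF proteins carry the signal to the TAK1 and IKK kinases, which mark the IkB proteins for destruction and free the NF-kB factors to enter the nucleus; the interleukin-6 receptor signals through STAT proteins instead. Many of the inhibitors are themselves NF-kB target genes, which closes a negative feedback loop. In HSCs the same receptors relay inflammatory and infectious stress, and MLKL, the executioner of necroptosis, acts downstream of the TNF and Toll-like receptors through RIPK3.

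The cells were sorted from bone marrow of C57BL/6 mice as Lin-/cKit+/Sca1+/Flk2-/CD48-/CD150+ cells. There were 4 groups of 3 libraries: Young WT and Young Mlkl-/- at 3 months, and Aged WT and Aged Mlkl-/- at 18 months. Each library pooled HSCs of several mice, with fewer mice per aged pool than per young pool, so pool size went with age. Both sexes were used, and the Mlkl deletion was present in every cell of the animal rather than in HSCs alone. The aged lists held more summits, 55040 ± 3847 and 55460 ± 7523 (SD, n = 3) in Aged WT and Aged Mlkl-/- against 43015 ± 5015 and 46366 ± 10342 in Young WT and Young Mlkl-/-, and read depth was unknown. Each list was therefore reduced to its 35714 highest summits, the length of the shortest list, which was Young Mlkl-/- replicate 3. A region's rank in a list was turned into a normal score, on which 0 is the middle of the 71006 regions and regions without a summit share a value between -0.575 and -0.525.

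Among stem cell markers, the promoters of Kit, Hlf, Meis1 and Erg had a summit in all 12 lists, while those of Slamf1 (which encodes the sorted antigen CD150) and Mecom had one in none of the equal-length lists, and Procr, Ly6a and Tek had 6, 2 and 2. Among promoters of genes of other blood cells, 10 had no summit in any of these lists, Cd48 had 1 and Flt3, which encodes the antigen Flk2 used to exclude cells, had 12. Summits at Y-linked genes were present in 3 of 6 young lists and in none of the 6 aged lists. A lower rank in such bulk libraries cannot be told apart between fewer cells with an accessible region and less accessibility per cell.

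Most of the 36 genes had an accessible promoter in every library. In 31 of them a promoter region of the gene itself was called in all 12 lists (86.1%), against 42.2% of 21938 protein-coding genes. Counted by region, 39 of the 52 promoter regions were called in all 12 lists, against 49.5% of all promoter regions, and 20 of the 106 distal regions, against 12.2% of all distal regions. The 31 genes included 6 of 8 receptors, 8 of 11 adaptors, all 4 kinase genes, all 5 factors and all 8 inhibitors, and the count was also 31 when the full lists were used.

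**Figure D1:**
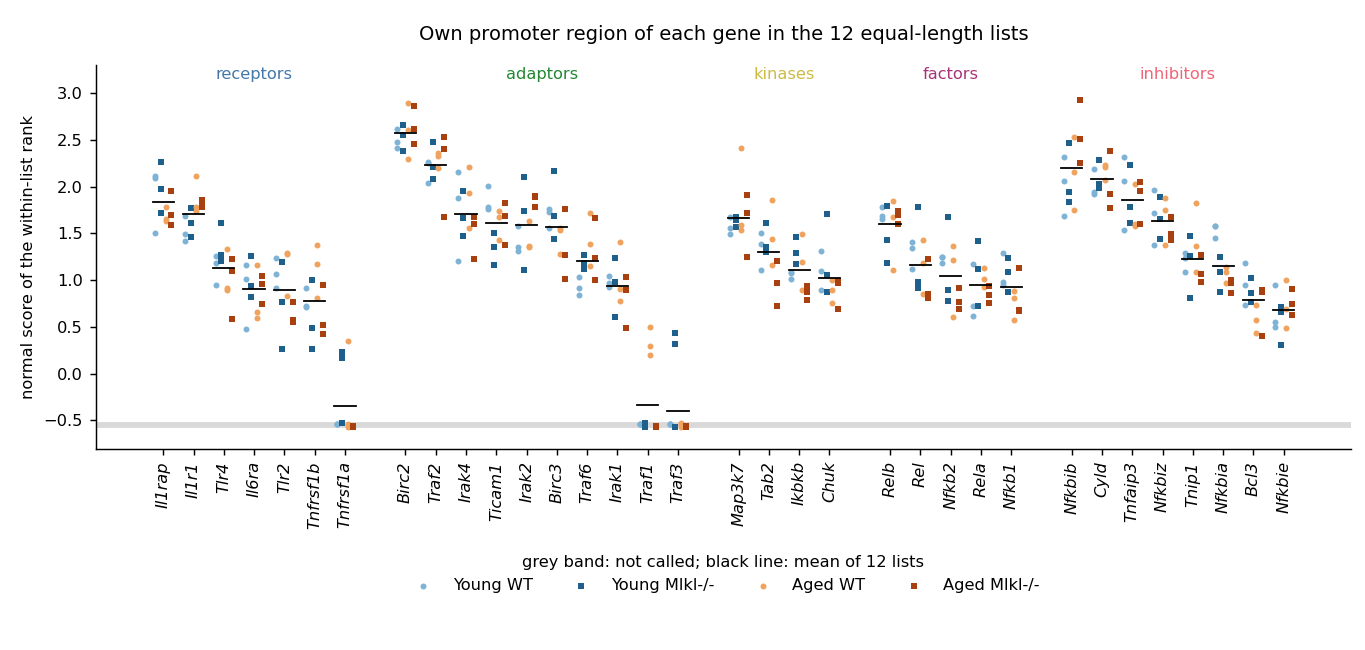
Normal score of the within-list rank (y axis) of the strongest promoter region of each gene (x axis, grouped by role), with 1 point per library and a black line at the mean of 12 libraries. Nearly all promoters lie well above the grey band of uncalled regions, and those of Tnfrsf1a, Traf1 and Traf3 lie mostly in it.

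Among the receptors, Il1rap, the co-receptor for interleukin-1, had the highest promoter, with a mean normal score of 1.83 ± 0.24 (SD, n = 12 libraries) and within-list percentiles from 93.4 to 98.8. Il1r1, the interleukin-1 receptor itself, followed at 1.71 ± 0.19, and these neighbors did not differ beyond their spread. Tlr4, the lipopolysaccharide receptor, had a score of 1.13 ± 0.26, Il6ra 0.90 ± 0.25 and Tlr2, which senses bacterial lipopeptides, 0.90 ± 0.33. The TNF receptors differed: the promoter of Tnfrsf1b (TNF receptor 2) was called in all 12 lists at 0.78 ± 0.32, while that of Tnfrsf1a (TNF receptor 1) was called in 3 equal-length lists and 8 full lists. The 3 lists were Young Mlkl-/- 1 and 2 and Aged WT 2, with scores of 0.23, 0.17 and 0.35. Tnfrsf1b also held 10 distal regions, 3 of them called in every list, and the strongest of these, 5.69 kb into the gene in an intron, reached 1.56 ± 0.39. Tlr9, which senses CpG DNA, had no region within 1 kb of its start, and its single region lay 3.81 kb into the gene in a coding exon, where it was called in all 12 lists at 1.12 ± 0.22.

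The adaptors held the strongest promoter of the 36 genes and some of the weakest. Birc2 encodes cIAP1, a ubiquitin ligase of TNF receptor complexes, and its promoter had the highest mean of all 36 genes, 2.57 ± 0.18, with percentiles between 98.9 and 99.8 in all 12 libraries. Traf2, its partner at the TNF receptors, came next at 2.24 ± 0.23. Irak4 had 1.71 ± 0.33, Ticam1 (TRIF) 1.61 ± 0.24, Irak2 1.59 ± 0.30, Birc3 (cIAP2) 1.56 ± 0.30, Traf6 1.21 ± 0.27 and the X-linked Irak1 0.94 ± 0.25. Traf1 and Traf3 stood at the other end. Of the pair of Traf1 promoter regions, the one in a UTR was called in 3 equal-length lists and the one in an intron in 1, and the Traf3 promoter was called in 2, Young Mlkl-/- 1 and 3, at 0.44 and 0.32. In the full lists the Traf3 promoter was called in 8.

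Myd88, which links Toll-like and interleukin-1 receptors to the IRAK kinases, had no region within 1 kb of a start in the basic gene models. A region 1.14 kb upstream, 118 bp from the start of Acaa1a, was called in all 12 lists at 1.48 ± 0.24. It covered the outermost annotated end of Myd88 (chr9:119335934-119341411), which belongs to a transcript outside the basic set, so it cannot be assigned to 1 of the neighbors.

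The kinase genes ranged from Map3k7 (TAK1) at 1.67 ± 0.28 through its partner Tab2 at 1.30 ± 0.30 and Ikbkb (IKK beta) at 1.11 ± 0.23 to Chuk (IKK alpha) at 1.02 ± 0.27. The NF-kB factors lay close together as well. Relb, the partner of the non-canonical pathway, was highest at 1.60 ± 0.24, although its region lay 710 bp into the gene, and Rel, the stronger of the Nfkb2 promoters, Rela and Nfkb1 had scores of 1.16 ± 0.30, 1.05 ± 0.32, 0.95 ± 0.23 and 0.93 ± 0.23. Neighbors in this order after Relb did not differ beyond their spread. Among the inhibitors, Nfkbib (IkB beta) led at 2.201 ± 0.371, followed by the deubiquitinase Cyld at 2.08 ± 0.18 and Tnfaip3, which encodes the ubiquitin-editing enzyme known as A20, at 1.86 ± 0.28. The stronger Nfkbiz and Tnip1 promoters had 1.64 ± 0.21 and 1.23 ± 0.26, Nfkbia (IkB alpha) had 1.15 ± 0.26, Bcl3 0.79 ± 0.23 and Nfkbie (IkB epsilon) the lowest, 0.68 ± 0.20.

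Distal regions were unevenly spread. Nfkb1 held 16 regions in all, of which only the promoter and an intronic region 70.63 kb into the gene were called in all 12 lists, the latter at 1.60 ± 0.21. Irak4 had 3 distal regions called in every list, and the one at 22.39 kb had the highest mean of the 106 distal regions, 1.68 ± 0.23. An intronic region of Irak2 at 30.41 kb reached 1.43 ± 0.24 and one of Traf3 at 58.86 kb reached 1.34 ± 0.24, although the promoter of Traf3 itself was rarely called. In the other direction, 39 of the 106 distal regions were in none of the equal-length lists and 22 were in only 1 of the full lists.

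The promoters of this pathway carried the NF-kB motif itself more often than promoters at large. A match to the NF-kB consensus, searched on both strands within 100 bp of the summit, was present in 14 of the 41 own promoter regions (34.1%), against 3.91% of all 18368 promoter regions and 4.05% of the 14781 whose nearest start is that of a protein-coding gene. Within 50 bp of the summit the shares were 24.4% and 2.10%. Distal regions had it in 7 of 106 (6.604%), against 2.93% of all distal regions. The inhibitors accounted for 8 of the 14 promoter regions and had a match in 7 of their 8 genes, Nfkbib being the one without a match. Counted in this class were also Bcl3 and Nfkbiz, whose products are atypical nuclear IkB proteins. Among the other classes, matches lay in promoters of 1 of 7 receptor genes with an own promoter region (Tlr2), 2 of 10 adaptor genes (Birc3 and Traf3), 1 of 4 kinase genes (Map3k7) and 2 of 5 factor genes (Nfkb1 and Nfkb2).

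The matches in the inhibitors, in the genes of both NF-kB precursor proteins, in Birc3 and in Tlr2 are shown because they carry this difference; each is 30 bases from mm10 on the strand of the gene, 5′ to 3′, with the consensus match in capitals and overlapping matches joined.
Nfkbia, 24 bp upstream of a start, chr12:55492657-55492686, minus strand: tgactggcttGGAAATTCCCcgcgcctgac
Nfkbie, 105 bp upstream of a start, chr17:45555584-45555613, plus strand: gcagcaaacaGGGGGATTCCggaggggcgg
Nfkbiz, 10 bp upstream of a start, chr16:55838850-55838879, minus strand: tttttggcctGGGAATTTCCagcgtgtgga
Bcl3, 22 bp past a start, chr7:19822734-19822763, minus strand: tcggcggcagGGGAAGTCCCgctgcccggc
Tnfaip3, 7 bp upstream of a start, chr10:19015403-19015432, minus strand: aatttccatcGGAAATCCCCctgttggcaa
Tnfaip3, 120 bp upstream of a start, chr10:19015516-19015545, minus strand: gactcacgcgGGGACACCCCggggcgggac
Tnip1, 75 bp upstream of a start, chr11:54962978-54963007, minus strand: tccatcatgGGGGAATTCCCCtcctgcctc
Cyld, 151 bp upstream of a start, chr8:88696863-88696892, plus strand: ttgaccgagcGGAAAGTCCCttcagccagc
Nfkb1, 35 bp past a start, chr3:135691497-135691526, minus strand: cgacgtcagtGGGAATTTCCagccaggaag
Nfkb2, 13 bp past a start, chr19:46305695-46305724, plus strand: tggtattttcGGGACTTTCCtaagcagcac
Birc3, 56 bp upstream of a start, chr9:7873066-7873095, minus strand: gaagagccacGGAAATCCCCagccagggtg
Tlr2, 156 bp past a start, chr3:83841597-83841626, minus strand: ccctgacctgGGGACATCCCcttccctcac
Upstream of Nfkbia the match stood in a stretch without annotated exons, and the 120 bases before its start, 5′ to 3′ with the match in capitals, place it close to the start.
Nfkbia, chr12:55492648-55492767, minus strand: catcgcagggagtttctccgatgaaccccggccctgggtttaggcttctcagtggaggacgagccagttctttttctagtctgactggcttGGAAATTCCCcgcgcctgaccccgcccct
The match in Bcl3 lay in its UTR, as did those in Nfkbiz, Nfkb1, Nfkb2 and Tlr2, while those of Nfkbia, Nfkbie, Tnfaip3 and Cyld and the one shown for Tnip1 and Birc3 lay in intergenic sequence. Of the 16 promoter matches, 11 were within 50 bp of the summit. A match is a description of the sequence and does not show that a factor was bound.

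Other motifs differed less. GGGCGG, the core of SP and KLF sites, was present in 70.7% of own promoters and 47.9% of all promoters, AGGAAGT (ETS) in 12.2% and 8.63%, TGANTCA (AP-1) in 9.76% and 4.76%, the GATA factor motif AGATAA in 4.88% and 3.79%, TGTGGTT (RUNX) in 2.44% and 4.01%, and the IRF consensus in 2.44% and 2.12%, all on both strands. In the distal regions of the pathway, AP-1 matches were present in 17.9%, against 12.1% of all distal regions, and ETS matches in 18.9%, against 18.7%. Several of these genes are textbook feedback targets of NF-kB, so their motif content is not independent of the choice of genes.

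**Figure D2:**
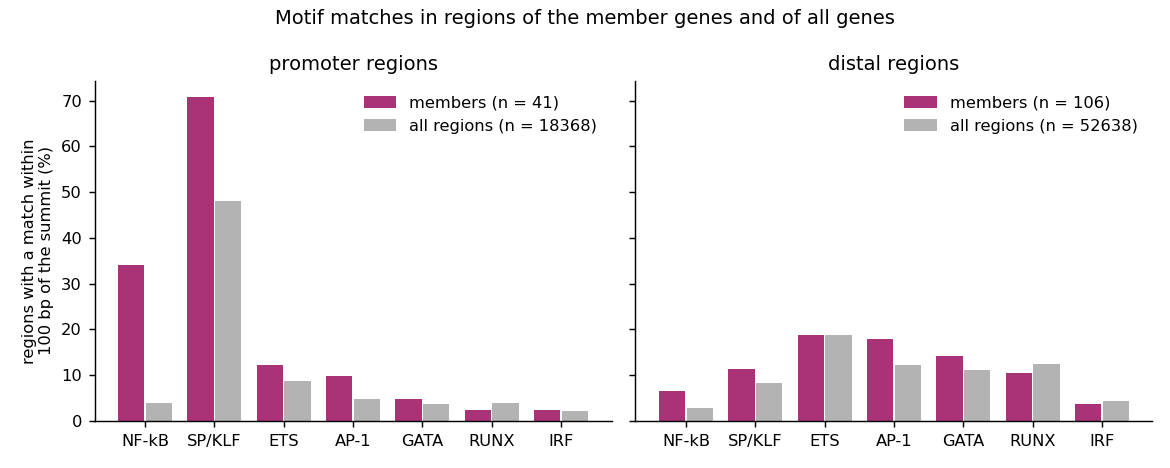
Share of regions with a motif match within 100 bp of the summit (y axis, percent), for the member genes (purple) and for all regions of the series (grey), in promoter and distal regions. NF-kB matches stand at 34.1% of member promoters and 3.91% of all promoters, and the distal shares lie closer together.

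The comparison of ages asked how accessibility at these genes differed between HSCs of 3 and 18 months. Of the 158 regions, 93 were called in at least 3 equal-length lists and were tested with limma on normal scores, p-values being adjusted over all 37876 tested regions by Benjamini-Hochberg with a threshold of 0.01. In all, 1 region was higher in aged HSCs (1.08% of 93, against 1.71% of all tested regions) and none was lower (against 0.995% of all). At an unadjusted p under 0.05 there were 17 of 93, 7 higher and 10 lower, which is 18.3% against 22.1% of all tested regions. The median age change over the 93 regions was -0.07, with 36 higher and 57 lower, and over all tested regions it was -0.01, with 49.1% higher. For promoters called in all 12 lists the change ranged from -0.32 to 0.30 with a median of -0.02 (n = 39) and a median standard error of 0.14, and the median over all such promoters was -0.03. None of the 39 passed, the lowest adjusted p by limma being 0.123 at the promoter of Nfkbia.

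The region that rose belonged to Bcl3, an atypical nuclear IkB protein that binds NF-kB dimers on DNA. It lay at chr7:19831738-19832281, 9.25 kb upstream of Bcl3 in intergenic sequence, with Bcl3 as the nearest start. In the aged lists its normal scores were 1.32, 0.99 and 1.21 in Aged WT and 1.41, 0.99 and 1.11 in Aged Mlkl-/-, with -log10 q-values from 16.1 to 30.7. In 5 of the 6 young lists it had no summit at all, also in the full lists, and the exception was Young Mlkl-/- replicate 3 at 0.72. The groups did not overlap, as was the case for 3.88% of all tested regions and for 2 of the 93 here. The mean rose from -0.34 ± 0.52 in young to 1.17 ± 0.17 in aged HSCs (SD, n = 6), a difference of 1.51 (SE 0.23; limma adjusted p = 0.000732). The region's 6 aged calls, beside 1 young call, brought it past the filter of at least 3 lists.

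Within genotypes the change was 1.71 in WT (SE 0.33, limma adjusted p = 0.0157) and 1.30 in Mlkl-/- (SE 0.33, limma adjusted p = 0.0521), and the difference between them, -0.41 (SE 0.46), did not pass (limma adjusted p = 0.964). It passed with any 1 of the 12 libraries left out, with changes from 1.40 to 1.72. It no longer passed with only the 9 libraries that carry a shared tag in their file names (change 1.33, limma adjusted p = 0.0196) or with the presence of Y-linked summits, which were seen in young lists only, as a covariate (1.19, limma adjusted p = 0.0188).

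The 201 bases around the highest summit of this region, 5′ to 3′ on the strand of Bcl3, are shown as the only region of the 36 genes that passed the test of age; no match to NF-kB, ETS, RUNX, AP-1, GATA, SP/KLF or IRF motifs lay in this window.
Bcl3, chr7:19831922-19832122, minus strand: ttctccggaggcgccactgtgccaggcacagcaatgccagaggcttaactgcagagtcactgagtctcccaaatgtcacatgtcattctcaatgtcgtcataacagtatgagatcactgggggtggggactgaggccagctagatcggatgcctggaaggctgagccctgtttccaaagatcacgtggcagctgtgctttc

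None of the other tested regions of Bcl3 passed. A neighboring region 8.19 kb upstream, called in all 12 lists, had scores of 1.31 ± 0.24 in young and 1.13 ± 0.11 in aged HSCs (SD, n = 6), the promoter 0.92 ± 0.17 and 0.65 ± 0.21, and an intronic region 5.16 kb into the gene 1.14 ± 0.12 and 1.33 ± 0.19. An intronic region 6.27 kb into the gene, at a start of Gm16174, stood at -0.04 ± 0.59 in young and 0.60 ± 0.14 in aged HSCs and did not pass (difference 0.64, SE 0.26, limma adjusted p = 0.157). The intronic region at 5.16 kb and the one 1.58 kb upstream also held NF-kB matches and were called in all 12 lists.

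**Figure D3:**
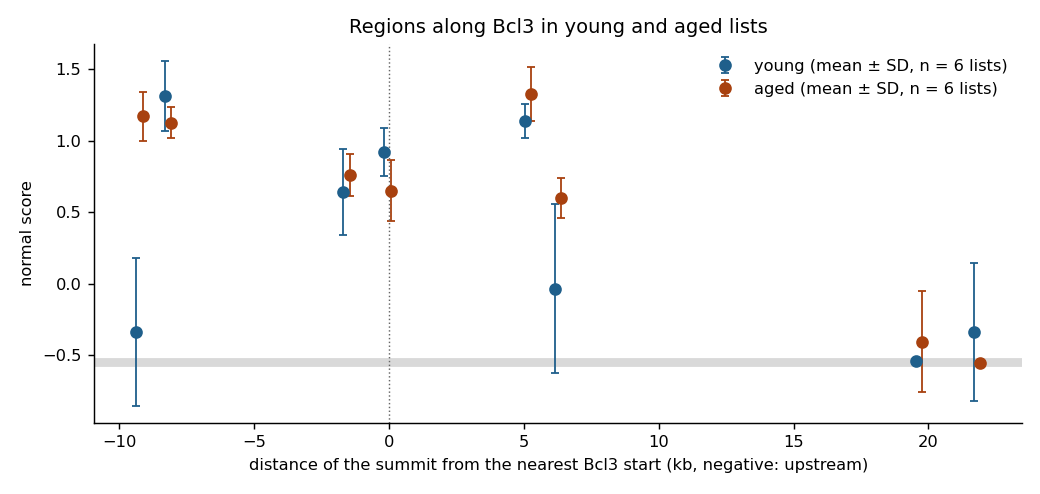
Mean normal score ± SD (n = 6 lists per age) of the 8 regions assigned to Bcl3 (y axis) against their distance from the nearest Bcl3 start in kb (x axis, negative is upstream), young in blue and aged in brown. The points separate at the region 9.25 kb upstream, where the young mean is -0.34 and the aged mean 1.17, and the grey band marks uncalled regions.

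Below the threshold of 0.01 but with adjusted p under 0.05, another 3 regions had lower scores in aged HSCs (3.23% of the 93, against 3.34% of all tested regions), a share near the background, and none besides the Bcl3 region was higher (1.08%, against 4.40%). An intronic region of Ikbkb, 4.93 kb into the gene (chr8:22701307-22701913), had scores of 0.64, 0.39 and 0.69 in Young WT and 0.44, 0.50 and 0.43 in Young Mlkl-/-. Among the aged equal-length lists it was called only in Aged WT 3, at 0.22, so that the ages did not overlap in these scores. Its 6 young calls, beside 1 aged call, brought it past the filter of at least 3 lists. The full lists also held it in Aged Mlkl-/- 1 and 3, and there the ages overlapped, with -log10 q-values from 5.31 to 11.5 in the 6 young lists and of 7.64, 5.15 and 3.38 in the 3 aged lists that held it. The means were 0.51 ± 0.12 and -0.42 ± 0.31 (SD, n = 6), a difference of -0.94 (SE 0.22, limma adjusted p = 0.0145). It passed in 2 of 23 alternatives, with lists of unequal length (-0.98, limma adjusted p = 0.0088) and without Aged WT 3, the aged list that held it (-1.06, limma adjusted p = 0.0068). The limma adjusted p was 0.0938 with list length and 0.0783 with Y-linked summits as a covariate. IKK beta, its product, is the kinase that phosphorylates IkB alpha in the canonical pathway.

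A region 11.43 kb past the start of Rela, beyond the 3′ end of the gene (chr19:5648632-5649307), was called in 5 of 6 young and in none of the 6 aged equal-length lists. Those young calls alone brought it past the filter of at least 3 lists, and its aged scores were all shared values of uncalled regions. Its difference was -1.01 (SE 0.25, limma adjusted p = 0.0205). It passed in 1 of 22 alternatives, without Young Mlkl-/- 1, the young equal-length list that lacked it (-1.23, limma adjusted p = 0.00423). With lists of unequal length the difference was -0.44 (limma adjusted p = 0.173), and the limma adjusted p reached 0.227 with list length as a covariate. The full lists held this region in all 12 libraries, with -log10 q-values from 5.32 to 12.6 in young and from 5.01 to 8.04 in aged lists, so the ages overlapped there. Rela encodes the main activating subunit of NF-kB, and its own promoter had an age difference of -0.02 (SE 0.15, limma adjusted p = 0.945).

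The third region lay 6.19 kb upstream of Traf3 in a UTR of 4930595D18Rik (chr12:111159865-111160474). Its scores were 1.09, 1.10 and 0.89 in Young WT, 1.29, 0.71 and 0.45 in Young Mlkl-/-, -0.54, 0.56 and -0.57 in Aged WT and 0.25, 0.42 and 0.48 in Aged Mlkl-/-. The values of -0.54 and -0.57 were those of uncalled regions. The full lists held this region in all 12 libraries, with -log10 q-values from 5.52 to 24.2 in young and from 3.91 to 12.7 in aged lists. In the equal-length lists the ages overlapped at the lowest young library, and the difference was -0.82 (SE 0.22, limma adjusted p = 0.0294). It passed in 1 of 23 alternatives, without Aged WT 2, the highest aged list (-1.01, limma adjusted p = 0.00552), while 12 of the 23 gave a limma adjusted p of 0.05 or more, up to 0.199 with Y-linked summits as a covariate. Traf3 restrains the non-canonical pathway by promoting the loss of its kinase NIK.

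For comparison with the gained region, 201 bases around the summits of the Ikbkb and Rela regions follow, 5′ to 3′ on the strand of the gene, with matches to RUNX, ETS, SP/KLF or NF-kB motifs in capitals.
Ikbkb, chr8:22701552-22701752, minus strand: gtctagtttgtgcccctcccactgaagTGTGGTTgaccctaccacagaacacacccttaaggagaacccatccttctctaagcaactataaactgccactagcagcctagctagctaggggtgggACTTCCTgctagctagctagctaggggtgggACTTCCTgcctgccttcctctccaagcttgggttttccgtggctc
Rela, chr19:5648809-5649009, plus strand: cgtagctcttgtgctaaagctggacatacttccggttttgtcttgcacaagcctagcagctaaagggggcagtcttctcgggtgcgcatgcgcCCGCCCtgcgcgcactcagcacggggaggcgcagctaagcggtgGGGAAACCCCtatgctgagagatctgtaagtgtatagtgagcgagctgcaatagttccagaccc
The Ikbkb window held 1 RUNX and 2 ETS matches, and the Rela window 1 SP/KLF match and an NF-kB match 41 bp from its summit.

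**Figure D4:**
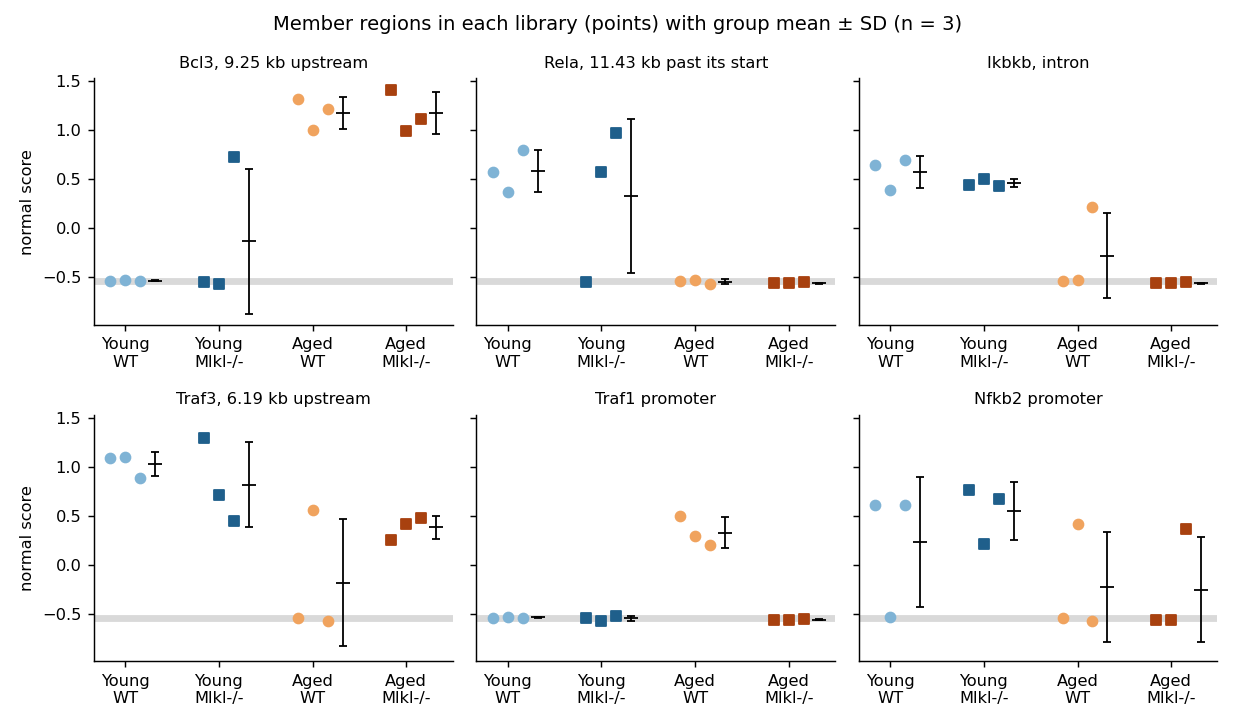
Normal score (y axis) of 6 member regions in each of the 12 libraries, grouped by age and genotype (x axis), with the group mean ± SD (n = 3) in black and uncalled regions in the grey band. The Bcl3 region is high in all 6 aged libraries and in 1 young library, the Rela and Ikbkb regions are mostly called in young libraries, and the Traf1 promoter is called only in the 3 Aged WT libraries, all in equal-length lists.

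Other regions had smaller differences with age, and none of these passed. The promoter of Traf6, the ubiquitin ligase downstream of MyD88, stood at 1.04, 0.84 and 0.91 in Young WT, 1.12, 1.27 and 1.18 in Young Mlkl-/-, 1.15, 1.38 and 1.71 in Aged WT and 1.24, 1.66 and 1.001 in Aged Mlkl-/-, and its difference of 0.30 (SE 0.13) had a limma adjusted p of 0.201. An intronic region of Irak4 at 13.97 kb differed by 0.37 (SE 0.14, limma adjusted p = 0.132). Both came with overlapping ages. The internal Nfkb2 promoter, whose window carries the NF-kB match shown above, was called in 5 young and 2 aged equal-length lists and differed by -0.63 (SE 0.29, limma adjusted p = 0.204). Its 5 young calls, beside 2 aged calls, brought it past the filter of at least 3 lists. The full lists held it in 6 young and 5 aged libraries. There its -log10 q-values ran from 5.37 to 13.0 in young and from 4.08 to 10.9 in these aged lists, with overlap. Its highest summit lay 9 bp from a start of AC114539.1. Among the 13 tested promoters with an NF-kB match, 9 had lower and 4 higher values in aged HSCs, with a median of -0.11 and a range from -0.63 to 0.13, and none passed.

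Taken within 1 genotype, no member region passed for age in WT (against 0.195% of all tested regions) or in Mlkl-/- (against 0.150%). At an unadjusted p under 0.05 there were 12 of 93 in WT (12.9%, against 14.6% of all) and 7 in Mlkl-/- (7.53%, against 14.4%). The 39 promoters called in all 12 lists had a median age change of 0.05 in WT, with 22 higher and 17 lower, and of -0.13 in Mlkl-/-, with 11 higher and 28 lower, beside medians of -0.01 and -0.04 over all such promoters, of which 47.8% and 41.8% were higher. The median of the difference between these changes was -0.16 over the 39 promoters and -0.03 over all such promoters, and no region's difference passed (0% of all tested regions). Over the 33 own promoters called in all lists, the median score was highest in Young Mlkl-/- 3, the shortest list, at 1.61. It was 1.20 and 1.27 in Young Mlkl-/- 1 and 2, and 1.125, 1.015 and 1.226 in Aged Mlkl-/-. It ran from 1.26 to 1.346 in Young WT and from 1.16 to 1.384 in Aged WT. In WT, 3 regions were called in all equal-length lists of one age and in none of the other, which was true of 2.27% of all 71006 regions. The Bcl3 and Traf1 regions gained calls. The Rela region lost them, although all 3 full Aged WT lists held it. In Mlkl-/- the Ikbkb intronic region lost its calls, beside 2.19% of all regions, although 2 of the 3 full Aged Mlkl-/- lists held it.

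Genotype was compared at each age to ask whether loss of MLKL altered these genes. None of the 93 regions passed in young HSCs, in aged HSCs or in both combined, and neither did any of the 37876 tested regions (0% in each of the comparisons by limma). At an unadjusted p under 0.05 there were 3 member regions in the young comparison (3.23%, against 5.36% of all), 7 in the aged comparison (7.53%, against 5.11%) and 9 in the combined one (9.68%, against 6.22%), while 6 had an unadjusted p under 0.05 for the difference in age change (6.45%, against 4.79%). The median genotype difference was 0.03 in young HSCs, -0.02 in aged HSCs and -0.01 with the ages combined, where the median standard error was 0.16 (0.14 for promoters called in all lists). At a single age the median standard error was 0.226, and for the difference in age change it was 0.32. A difference of the size of these errors could not be told from 0. Larger ones, such as -0.51 (SE 0.17) at the Ticam1 promoter in young HSCs, did not pass either.

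At 3 months the lowest unadjusted p among the members was at the promoter of Ticam1, which encodes TRIF, the adaptor of TLR3 and TLR4. Its scores were 2.004, 1.76 and 1.78 in Young WT and 1.51, 1.16 and 1.35 in Young Mlkl-/-, without overlap, a difference of -0.51 (SE 0.17, limma adjusted p = 0.628). At 18 months the means were 1.62 ± 0.17 and 1.63 ± 0.23 (SD, n = 3). The promoter of Nfkbia showed the same order at 3 months, with 1.57, 1.45 and 1.58 in Young WT and 1.09, 0.88 and 1.24 in Young Mlkl-/-, and differed by -0.47 (SE 0.16, limma adjusted p = 0.714). In aged HSCs it stood at 1.15, 0.97 and 1.09 in WT and 0.96, 0.86 and 1.001 in Mlkl-/-.

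At 18 months the promoter of Traf1, which binds TNF receptor 2 together with TRAF2, separated the genotypes in the equal-length lists. It was called in Aged WT at 0.50, 0.29 and 0.20 and in no list of the other 3 groups, as were 0.0324% of all regions, while 0.599% were called in all lists of one aged genotype and none of the other, in either direction. Those 3 calls alone brought it past the filter of at least 3 lists, and the pattern was named with its values known. The difference between aged genotypes was -0.89 (SE 0.26, limma adjusted p = 0.655). The full lists held it in all 6 aged libraries and in no young library, with -log10 q-values of 10.6, 7.19 and 7.33 in Aged WT and 4.99, 5.86 and 3.91 in Aged Mlkl-/-. The lowest values kept in the equal-length lists were 7.60, 6.69 and 7.18 in Aged WT and 7.67, 5.97 and 9.025 in Aged Mlkl-/-. Aged WT 3 thus lay just above its cut and Aged Mlkl-/- 2 just below. At 3 months none of the 158 regions was called in all lists of one genotype and none of the other, against 0.553% of all regions.

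Over both ages, the intronic Tnfrsf1b region at 5.69 kb was higher in Mlkl-/- by 0.44 (SE 0.15, limma adjusted p = 0.764). Its scores were 1.22, 1.44 and 1.01 in Young WT, 1.55, 2.04 and 1.27 in Young Mlkl-/-, 1.26, 1.18 and 1.95 in Aged WT and 2.04, 2.05 and 1.74 in Aged Mlkl-/-, so the genotypes overlapped at each age. A region in a UTR of Ticam1, 7.44 kb past its start, differed in the same direction by 0.37 (SE 0.13, limma adjusted p = 0.764). In the opposite direction the promoter of Tlr2 differed by -0.41 (SE 0.16, limma adjusted p = 0.764), with 0.92, 1.07 and 1.24 in Young WT, 0.77, 0.27 and 1.20 in Young Mlkl-/-, 1.29, 1.28 and 0.83 in Aged WT and 0.57, 0.55 and 0.77 in Aged Mlkl-/-. The Tlr2 scores did not overlap between genotypes at 18 months and overlapped at 3 months. A region at the start of Erlin1, within 10 kb of Chuk, had the lowest genotype difference at 18 months, -0.996 (SE 0.32, limma adjusted p = 0.723), and is not an element of Chuk by position alone.

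**Figure D5:**
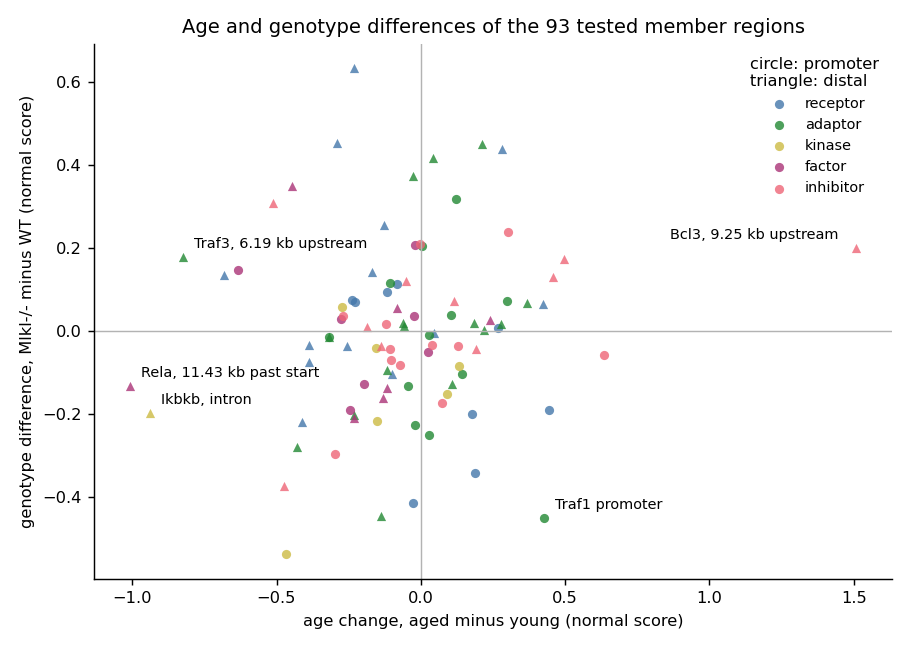
Age change (x axis, aged minus young) against genotype difference (y axis, Mlkl-/- minus WT), both in normal scores, for the 93 tested regions colored by role, promoters as circles and distal regions as triangles. Most regions lie near the origin, and the Bcl3 region 9.25 kb upstream stands alone at an age change of 1.51.

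Another 60 genes of the pathway, such as further Toll-like receptors, ligands, and kinases, were taken by the same rule for comparison. Their 201 regions included 121 tested ones, and 27 of the 60 genes (45%) had an own promoter called in all 12 lists, against 42.2% of protein-coding genes. Of the 121 regions, 1 was higher in aged HSCs, in intergenic sequence 60.26 kb past the start of Irak3, and none was lower. Irak3 encodes a brake on IRAK signaling, and its region was called in all 6 aged and no young equal-length lists (difference 1.15, SE 0.22, limma adjusted p = 0.0032). Those aged calls alone brought it past the filter of at least 3 lists. The Irak3 region no longer passed the test of age with a score of 5 or more, with all deposited summits, with only the tagged libraries, with list length or Y-linked summits as a covariate, or without Aged Mlkl-/- 2. At an unadjusted p under 0.05 there were 26 for age (21.5%, against 22.1% of all tested regions), and no region passed for genotype or for the difference in age change.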

How the data were processed

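ATAC-seq summit lists of 12 HSC libraries were analyzed. The authors aligned reads to mm10 with Bowtie2 2.5.3, called peaks in each library separately with MACS2 2.2.7.1 and deposited the summits with -log10 q-values. Their stated cutoff was a q-value of 0.001, whereas the deposited lists reach down to a score of 2, so a minimum of 3 was applied. Counts of reads were not used here and depth is unknown. Each replicate was a pool of sorted cells from several mice of one group, prepared on the same day.

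The 36 genes, the 60 other pathway genes, the markers, the motifs and the tests were chosen with earlier results of these data known. Regions were 250 bp each side of summits, merged, and assigned to genes with GENCODE vM21 models; promoters lay within 1 kb of a basic transcript start. Lists were reduced to 35714 summits, ties being broken at random with a fixed seed. Regions present in 3 or more of the reduced lists (37876) entered limma 3.58.1 (R 4.3.3) as normal scores of their ranks, with a mean per group, 7 contrasts, an intensity trend, Benjamini-Hochberg adjustment and a threshold of 0.01. Sequences came from GRCm38.p6, whose coordinates are those of mm10. The fit was tested on simulated data. Results for some marker genes are not reported here. With 3 libraries per group, p-values rest on the spread of scores between pools. Where a group lacks calls, its scores are the shared values of uncalled regions, and their spread is not one of accessibility. Regions were named by rules: those past the threshold, the largest differences with an unadjusted p under 0.05 per contrast, the highest promoters and distal regions, promoters not called in every list, and regions with an NF-kB match; the text gives a selection of these, chosen with their values known. Alternatives were list length, score minimum, window, rank scale, filter, threshold, groups in the fit, replicate block, left-out libraries, covariates and gene window.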

Additional observations from a re-analysis of the deposited data

How the results depend on the processing

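The count of member regions changed with age over both genotypes, 1 in the analysis reported, was 2 with lists of unequal length, 0 with the 9 tagged libraries, 0 with Y-linked summits as a covariate, 4 at an adjusted p under 0.05, and 0 and 3 with gene windows of 2 kb and 50 kb. With 1 library left out it was 1 to 2, the 2 occurring without Young Mlkl-/- 1, Aged WT 2 or Aged WT 3. For age in WT, where no region passed, the count was 1 with unequal lists, 1 with regions called in at least 1 list, 1 with those called in at least 6, 1 at an adjusted p under 0.05, and 0 to 1 with a library left out, the 1 occurring without Young Mlkl-/- 3. For the other pathway genes it was 3 with unequal lists, 0 with a score of 5 or more, 0 with all deposited summits, 0 with the tagged libraries, 0 with list length and 0 with Y-linked summits as a covariate, 8 at an adjusted p under 0.05, 2 with a 50 kb window and 0 to 2 with a library left out (0 without Aged Mlkl-/- 2; 2 without Young WT 1, Young Mlkl-/- 3, Aged WT 2 or Aged WT 3). Distal regions called in all 12 lists numbered 35 with a 50 kb window. The cause of these shifts was not tested, apart from the windows and thresholds, which change the regions counted. The counts for age in Mlkl-/- and for the 4 genotype comparisons were 0 under every alternative run, and no tested difference changed sign in a named region.

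The Bcl3 region upstream passed in 21 of 23 alternatives, with limma adjusted p from 1.88e-05 to 0.0196. With the replicate block its limma adjusted p was 0.00172 and the count of member regions changed with age was again 1. Libraries with the same replicate number did not deviate together: of 18 pairs, 1 had a correlation above 0.1 (from -0.301 to 0.128), so numbers were not taken to pair the samples. Of 36 pairs with different numbers, 5 were above 0.1. They included the pairs among Young Mlkl-/- 2, Aged WT 3 and Aged Mlkl-/- 1, the libraries without the file name tag (0.307, 0.101 and 0.109). The others were Aged WT 2 with Young Mlkl-/- 3 (0.266) and with Aged Mlkl-/- 3 (0.108). The cause was not tested. Depth is unknown, so a region missing from a list cannot be separated from a region below its threshold.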

Other observations

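Among the 121 tested regions of the other pathway genes, 8 had a limma adjusted p under 0.05 for age, 2 higher (1.65%, against 4.40% of all tested regions) and 6 lower in aged HSCs (4.96%, against 3.34%). Of these, 3 belonged to Tbk1, the kinase that activates IRF3 downstream of TRIF, and they did not share a direction. The intronic region at 22.16 kb from its start differed by 0.99 (limma adjusted p = 0.0237), while the intronic region at 3.57 kb and a region at -4.45 kb, in an intron of Xpot, differed by -0.92 (limma adjusted p = 0.0325) and -0.87 (limma adjusted p = 0.0288). A region at -4.62 kb from the start of Tlr3, which senses double-stranded RNA, differed by -0.98 (limma adjusted p = 0.0142), and an intronic region of Map3k14 at 9.10 kb, the gene of the non-canonical kinase NIK, by -0.85 (limma adjusted p = 0.0352). The Tlr3 region was called in 2 Young WT, 3 Young Mlkl-/- and no aged equal-length lists. Those young calls alone brought it past the filter of at least 3 lists. The other 3 were the Irak3 region described above and regions of Traf5 (-0.49) and Tnip3 (-0.53), and Irak3 alone passed 0.01. Differences are aged minus young in normal scores, and these regions were named after their values were seen.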
